A study of Mus musculus with 20 samples.

Results

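The endothelin genes of the mouse are a small set: 3 peptide ligands (Edn1, Edn2 and Edn3), 2 receptors (Ednra and Ednrb) and 2 converting enzymes (Ece1 and Ece2). They were chosen by name, and all 7 have a row among the 24062 genes counted in each library. RNA was measured in whole lungs of mice of both sexes, per the labels, on a mixed C57/129 background, 8 to 10 weeks old when exposure began. Wild type mice (Arg2+/+) and mice without arginase 2 (Arg2-/-) breathed either room air (21% oxygen) or a hypoxic gas mixture (10% oxygen) for 28 days. Each of the 4 groups held 4 samples: wild type room air, wild type hypoxia, knockout room air and knockout hypoxia. Both room air groups came as 6 libraries, of which 2 pairs each share a number and were summed. The deletion is carried by the whole animal as far as the labels say, and no promoter or Cre is named. The series asks how loss of Arg2, the mitochondrial arginase that competes with nitric oxide synthases for arginine, bears on pulmonary hypertension in chronic hypoxia.

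Endothelins are short peptides cut from longer precursors, first by furin-type proteases and then by the membrane metalloproteases Ece1 and Ece2. Endothelin 1, the product of Edn1, is released mainly by endothelium and is a strong and long-lasting constrictor. Ednra on smooth muscle couples through Gq to calcium release and contraction, whereas Ednrb on endothelium raises nitric oxide and takes circulating endothelin 1 out of the blood, a task in which the lung has a large share. In the mouse lung, Ednrb RNA is a known marker of aerocytes, the capillary endothelial cells that line the gas exchange surface.

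The genes lie on different chromosomes except for a pair on chromosome 4. On GRCm38, the assembly behind mm10, Edn1 spans chr13:42301476-42307990 on the plus strand, Edn2 chr4:120161206-120167360 (plus) and Edn3 chr2:174760619-174784042 (plus). Ednra spans chr8:77663031-77724464 (minus) and Ednrb chr14:103814625-103844402 (minus). Ece1 spans chr4:137862237-137965229 (plus) and Ece2 chr16:20629828-20646485 (plus). In GENCODE vM21 an antisense gene shares exon sequence with Edn1 (Gm47118), and another on the opposite strand shares it with Ednra (4933431K23Rik). Gm49333, a protein-coding gene of the same strand, shares exons with Ece2. None of these neighbours has a row of its own in the counts and no source used here gives the strand setting of the counting, so reads of Edn1, Ednra and Ece2 may include theirs.

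The 250 bases before the RefSeq start are shown for the ligand and the receptor with the largest changes described below, Edn1 and Ednrb, and for Ednra as the receptor set against Ednrb. They come from RefSeq on GRCm38.p6 and read 5′ to 3′ on the gene's strand. The window of Edn1 is chr13:42301226-42301475 (plus), that of Ednrb chr14:103843702-103843951 (minus) and that of Ednra chr8:77724453-77724702 (minus). The window of Ednrb lies within the first intron of a GENCODE transcript that starts farther upstream. Capitals mark the core of the hypoxia response element, and the windows with no capitals hold no match.

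Edn1: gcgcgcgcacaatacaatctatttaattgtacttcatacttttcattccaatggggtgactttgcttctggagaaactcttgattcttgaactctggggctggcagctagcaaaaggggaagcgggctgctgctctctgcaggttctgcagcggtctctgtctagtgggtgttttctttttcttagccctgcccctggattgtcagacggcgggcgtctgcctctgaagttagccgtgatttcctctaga
Ednrb: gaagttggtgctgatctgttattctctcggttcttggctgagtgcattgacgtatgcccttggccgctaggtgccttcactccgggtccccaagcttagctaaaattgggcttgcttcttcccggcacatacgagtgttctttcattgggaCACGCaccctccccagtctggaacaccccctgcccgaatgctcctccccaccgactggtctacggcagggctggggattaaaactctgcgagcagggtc
Ednra: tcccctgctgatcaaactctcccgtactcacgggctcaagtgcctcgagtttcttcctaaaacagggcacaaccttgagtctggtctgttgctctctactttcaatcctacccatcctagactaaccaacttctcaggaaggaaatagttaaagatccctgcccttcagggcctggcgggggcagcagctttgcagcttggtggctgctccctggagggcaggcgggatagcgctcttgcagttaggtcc

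A set of 4 motifs was searched on both strands. The hypoxia response core (ACGTG or GCGTG) occurred in 38.6% of 32851 promoter windows of this length, the AP-1 motif (TGACTCA or TGAGTCA) in 4.46%, the GATA motif (AGATAA or TGATAA) in 16.6% and the GC box (GGGCGG) in 32.74%. The Ednrb window held 1 hypoxia response core, read as CACGC at position -99 from the start, and none of the other motifs. The windows of Edn1, Edn3 and Ednra held none of the 4 motifs. Edn2 held 1 hypoxia response core at -219, and Ece2 held 1 at -92 and 1 GC box at -50. Ece1 has 4 annotated starts. The windows of the first and second start overlap and share 1 hypoxia response core, at -199 from the first start and -242 from the second. The window of the second start also held GC boxes at -48 and -14. The window of the third held matches of the hypoxia response core at -90, -89, -74 and -33, of which those at -90 and -89 overlap, and that of the last held 1 GC box at -138. A match is a description of the letters and no measurement of binding.

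Reads counted in genes ranged from 9531270 to 63331530 per sample, and a count of 0 allows a level of up to 0.0457 to 0.323 CPM (reads of a gene scaled to a common library size), for counting error only. Reads in genes made up 47.4% to 64.2% of the reads in genes or in none in 13 samples, but 25.4% in sample 3 of wild type room air, 35.5% in sample 1 of wild type hypoxia and 37.7% in sample 3 of knockout hypoxia. Skeletal muscle markers stood apart in wild type room air 1, pancreas markers in knockout hypoxia 1 and 2, and Dntt, a thymocyte gene, in knockout room air 3 and 4. The lung markers Sftpc and Sftpb were high in all samples, and all 16 samples had more Y-linked than Xist counts although the labels name both sexes. In wild type, Arg2 was at 7.30 to 11.8 CPM under room air and 6.33 to 11.7 under hypoxia. In knockout mice it was at 4.58 to 7.78 CPM under room air and 3.22 to 5.37 under hypoxia. The knockout samples were thus lower on average but not at 0, and the room air groups overlapped (log2 fold change -0.70 ± 0.21, adjusted p = 0.0842; in hypoxia -1.13 ± 0.22, adjusted p = 0.00191). No source used here says which exons the deletion removes.

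Levels of the genes were compared per kilobase of merged exons. In wild type room air, Ece1 was highest at 106 ± 16.3 CPM per kb (SD, n = 4), followed by Ednrb at 35.4 ± 5.87, Edn1 at 16.7 ± 5.64, Ednra at 9.96 ± 0.44, Edn3 at 7.49 ± 0.58 and Ece2 at 0.83 ± 0.14. No neighbours in this order overlapped between their 4 samples. Per kb of the longest transcript, Ednra was at 15.04 CPM and no longer apart from Edn1. Edn2 came last, with 8 reads in all 16 samples together against 27097 for Edn1 and 229240 for Ece1. Knockout room air had the same order. It changed in hypoxia: in both genotypes Edn1 stood above Ednrb in all samples, with 27.6 ± 10.2 against 13.0 ± 1.81 CPM per kb in wild type and 43.3 ± 5.14 against 13.3 ± 1.32 in the knockout. In wild type hypoxia Ednra and Edn3 overlapped, at 8.70 to 10.95 and 5.83 to 8.87 CPM per kb.

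**Figure D1:**
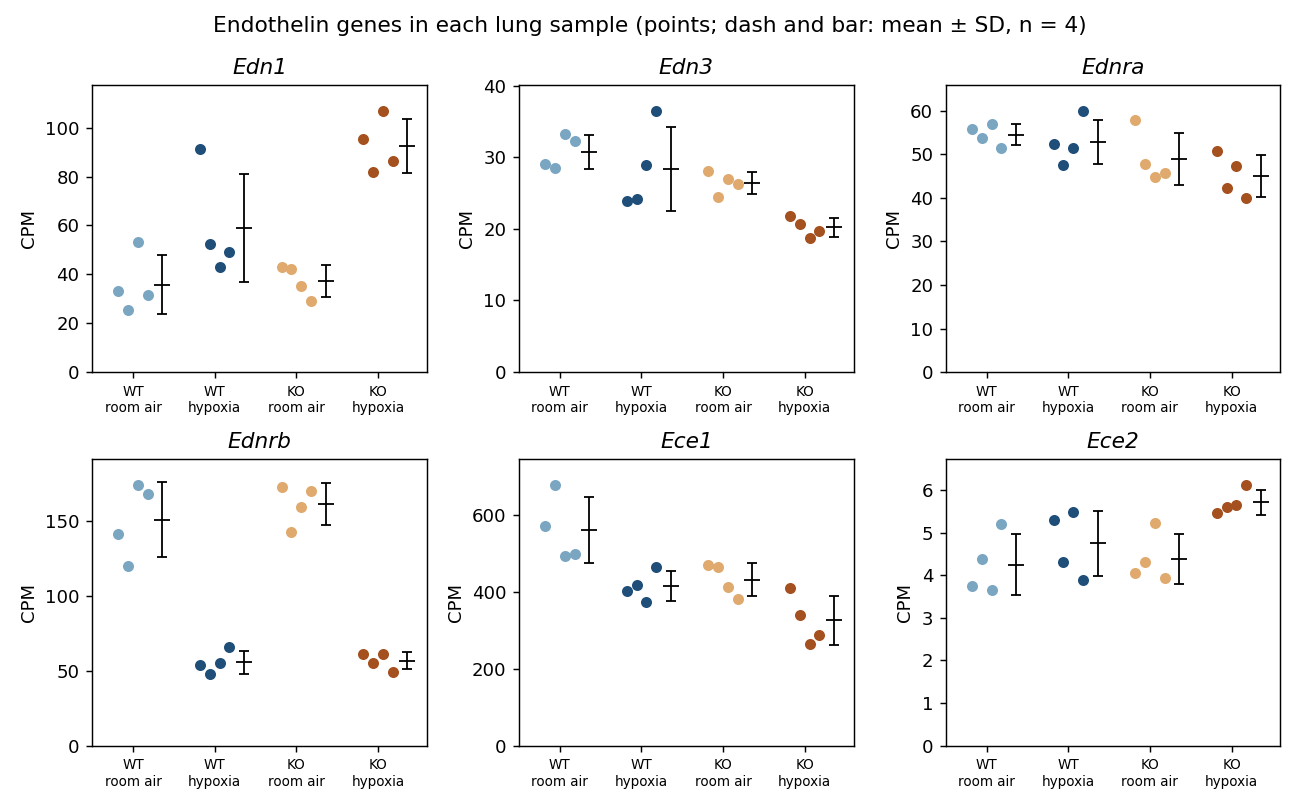
Level of each tested endothelin gene in CPM (vertical axis, from 0) in the 4 groups (horizontal axis); each point is a sample, and the dash with its bar is the mean ± SD of 4 samples. Ednrb separated the oxygen levels in both genotypes, between 120 and 174 CPM in room air and 47.6 and 66.2 CPM in hypoxia for wild type, whereas Ednra lay between 39.98 and 59.97 CPM in all groups.

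Edn1 was higher after hypoxia in the knockout, where the change passed the test, and was higher on average in wild type, where it did not. In wild type room air, samples 1 to 4 had 33.1, 25.2, 53.1 and 31.6 CPM of Edn1, and in wild type hypoxia 91.3, 52.5, 42.9 and 49.2 CPM. Sample 3 of room air exceeded 3 of the 4 hypoxia samples, so the groups overlapped. Room air knockout samples had 43.1, 42.2, 35.3 and 29.0 CPM, and hypoxia knockout samples 95.3, 81.9, 107 and 86.5 CPM. These groups did not overlap, and the lowest hypoxia sample stood well above the highest of room air.

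The means of Edn1 were 35.7 ± 12.1 CPM in wild type room air and 59.0 ± 21.9 in wild type hypoxia (log2 fold change 0.74 ± 0.24 SE, adjusted p = 0.104). In the knockout they were 37.4 ± 6.57 and 92.6 ± 11.0 CPM (1.31 ± 0.24, adjusted p = 0.00152). The difference between both hypoxia effects was 0.56 ± 0.34 on the log2 scale (adjusted p = 0.488), with a 95% interval from -0.15 to 1.28, so a larger rise in the knockout was not shown.

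In 3 of the 4 groups, the sample with the lowest share of reads in genes was also the one with the most Edn1 RNA. Wild type room air 3 had 53.1 CPM against 25.2 to 33.1 in the other samples of its group, wild type hypoxia 1 had 91.3 against 42.9 to 52.5, and knockout hypoxia 3 had 107 against 81.9 to 95.3. In knockout room air the lowest share belonged to sample 2, second highest for Edn1 at 42.2 CPM. For no other tested endothelin gene did the lowest-share sample rank first in more than 2 groups. Edn3 was instead lowest of its group in that sample in wild type hypoxia, knockout room air and knockout hypoxia (24.0, 24.4 and 18.8 CPM). In wild type room air it was highest there, at 33.3 CPM. The part of read assignment in these values was not tested.

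**Figure D2:**
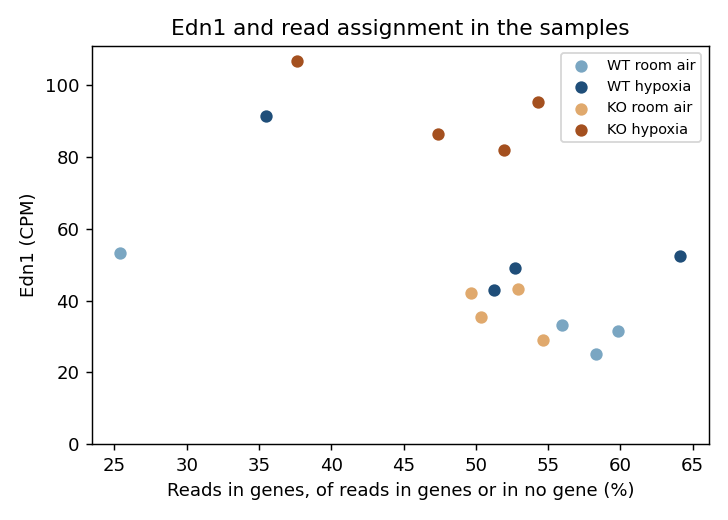
Edn1 in CPM (vertical axis) against the percentage of reads in genes, of the reads in genes or in none (horizontal axis), for each of the 16 samples, coloured by group. The 3 samples under 40% hold the highest Edn1 value of their groups, 53.1, 91.3 and 107 CPM, and knockout hypoxia lies above both room air groups at all shares.

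Without these 3 samples, an analysis chosen after seeing the data, the standard error of Edn1 was smaller and the hypoxia effect passed in both genotypes. Each of them held the highest Edn1 value of its group, so leaving them out narrows the spread of Edn1 by itself. It also leaves each of these groups 1 sample smaller, and it is no test of read assignment. The hypoxia effect was then 0.69 ± 0.14 in wild type (adjusted p = 0.0116) and 1.23 ± 0.13 in the knockout (adjusted p = 1.82e-05). The wild type effect was also called by DESeq2, by limma voom, and with sample 3 of wild type room air left out (0.97 ± 0.22, adjusted p = 0.0189). Edn1 in the knockout lost its call in 1 analysis, which left out the 5 samples with pancreas, skeletal muscle or Dntt reads (1.18 ± 0.38, adjusted p = 0.0997). Those include knockout room air 3 and 4 and knockout hypoxia 1 and 2. With fewer samples the estimate stayed near that of the main fit (1.31 ± 0.24), and its standard error was larger.

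Edn3 encodes endothelin 3, which binds Ednrb as strongly as endothelin 1 and Ednra weakly. It fell after hypoxia in the knockout. Knockout room air samples had 28.1, 24.4, 26.9 and 26.2 CPM, and knockout hypoxia samples 21.9, 20.7, 18.8 and 19.7 CPM. All hypoxia samples were lower than all room air samples (log2 fold change -0.38 ± 0.12, adjusted p = 0.0263). In wild type, room air samples had 29.0, 28.5, 33.3 and 32.3 CPM and hypoxia samples 24.0, 24.1, 29.0 and 36.5 CPM. Sample 4 of hypoxia was the highest of all 16, and the groups overlapped (-0.11 ± 0.12, adjusted p = 0.713). The call in the knockout was lost in 9 of 28 alternative analyses. Among these were the analyses without knockout room air 1 or 3 and without knockout hypoxia 2, 3 or 4. The call was also lost without the samples under 40% of reads in genes. Over all 28 the adjusted p ran from 0.00367 to 0.192.

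Edn2 was at the limit of detection. Wild type room air 1 had 5 reads, and wild type room air 2, wild type hypoxia 4 and knockout room air 1 had 1 read each. The other 12 samples had 0 reads, and the gene was not tested. The ratio of Edn1 to Edn3 RNA per kb was 2.21 ± 0.61 under room air and 4.24 ± 2.17 under hypoxia for wild type, and 2.73 ± 0.52 against 8.85 ± 1.45 for the knockout. All knockout hypoxia samples were above all room air samples, whereas the wild type samples overlapped.

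Ednrb fell after hypoxia in both genotypes by a similar amount. Wild type samples 1 to 4 had 141, 120, 174 and 168 CPM in room air and 53.8, 47.6, 55.0 and 66.2 CPM in hypoxia. Knockout samples had 173, 143, 159 and 170 CPM in room air and 60.9, 55.1, 61.3 and 49.3 CPM in hypoxia. The lowest room air sample of either genotype stood far above the highest hypoxia sample of both. The log2 fold change was -1.44 ± 0.12 in wild type (adjusted p = 5.49e-07) and -1.51 ± 0.12 in the knockout (adjusted p = 1.58e-07). By its p, Ednrb ranked 8th of 15766 genes tested for hypoxia in wild type and 13th in the knockout. The difference between the effects was -0.07 ± 0.17 (adjusted p = 0.898; 95% interval -0.42 to 0.28).

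The fall of Ednrb passed the test in all 28 alternative analyses in each genotype, with log2 fold changes from -1.53 to -1.35 in wild type and from -1.56 to -1.45 in the knockout. Ednra did not pass in either genotype. Its values were 55.8, 53.8, 56.98 and 51.5 CPM in wild type room air and 52.3, 47.6, 51.5 and 59.97 CPM in wild type hypoxia. In the knockout they were 57.8, 47.7, 44.7 and 45.6 CPM in room air and 50.7, 42.2, 47.4 and 39.98 CPM in hypoxia. The groups overlapped in both genotypes (log2 fold change -0.04 ± 0.10, adjusted p = 0.886, and -0.12 ± 0.10, adjusted p = 0.449). The 95% intervals ran from -0.25 to 0.16 in wild type and from -0.33 to 0.08 in the knockout, so a fall of the size of that of Ednrb lay outside both.

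The balance of the receptors therefore moved with the oxygen level. Ednrb made up 77.8 ± 3.03% of receptor reads per kb in wild type room air and 57.4 ± 1.06% in wild type hypoxia. In the knockout its share was 80.9 ± 1.79% in room air and 61.8 ± 0.93% in hypoxia. The ratio of Ednra to Ednrb rose from 0.287 ± 0.051 to 0.743 ± 0.032 in wild type and from 0.237 ± 0.027 to 0.620 ± 0.024 in the knockout, with no overlap between oxygen levels. These ratios are given per sample and carry no test. Their absolute size depends on the length assumed: per kb of the longest transcript they went from 0.418 under room air to 1.081 under hypoxia for wild type and from 0.345 to 0.901 for the knockout. Both receptors together fell from 45.4 ± 5.92 to 22.7 ± 2.75 CPM per kb in wild type and from 46.8 ± 3.82 to 21.5 ± 2.18 in the knockout.

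**Figure D3:**
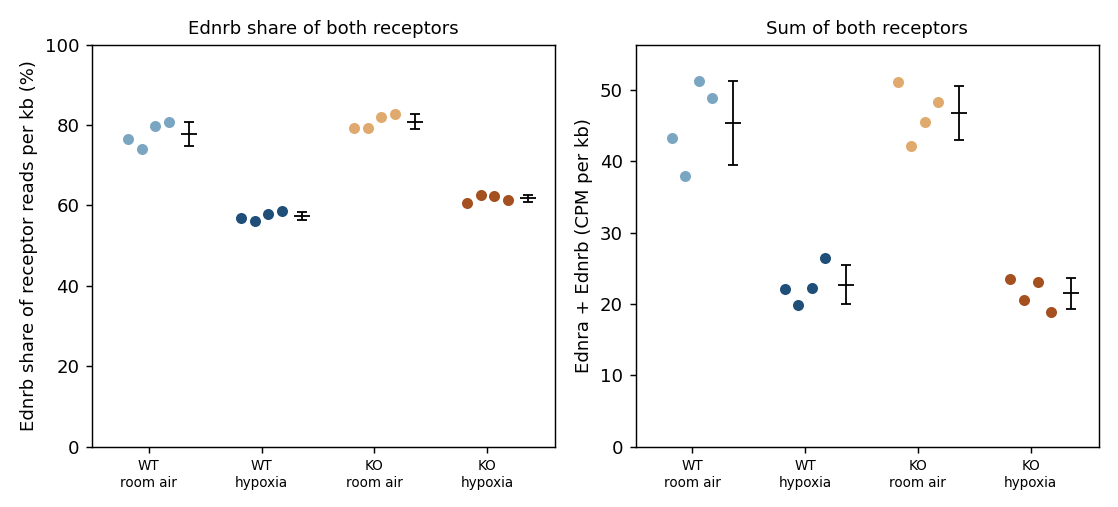
Left, the share of Ednrb in the reads per kb of both endothelin receptors (%), and right, the sum of Ednra and Ednrb (CPM per kb), for the 4 groups; each point is a sample, and the dash with its bar is the mean ± SD of 4 samples. The Ednrb share lay between 74.1% and 82.7% in room air and between 56.2% and 62.6% in hypoxia.

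Ece1, the main endothelin converting enzyme, was the most abundant of the 7 genes in all groups and was lower after hypoxia. Wild type samples had 572, 678, 494 and 497 CPM in room air and 403, 417, 374 and 465 CPM in hypoxia. All hypoxia samples were below all room air samples, but the adjusted p missed the threshold (log2 fold change -0.43 ± 0.13, adjusted p = 0.0582). Knockout samples had 470, 466, 412 and 380 CPM in room air and 410, 341, 266 and 287 CPM in hypoxia. Here the groups overlapped through hypoxia sample 1, and the fall passed (-0.41 ± 0.13, adjusted p = 0.0339). The knockout call was lost in 7 of 28 alternatives, those without knockout room air 1, 2 or 3, without knockout hypoxia 2, 3 or 4 and without the 3 samples of low read assignment, with adjusted p between 0.00591 and 0.122 over all of them. The wild type effect was called in 7 of 28, with adjusted p between 0.0199 and 0.194, among them the analyses without wild type room air 3, wild type hypoxia 4 or knockout hypoxia 1 or 3.

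Ece2, the second converting enzyme, works at acid pH and is best known from neural tissue. It was low, at 3.66 to 5.21 CPM in wild type room air and 3.89 to 5.48 in wild type hypoxia (log2 fold change 0.14 ± 0.17, adjusted p = 0.755). In the knockout it was at 4.05, 4.30, 5.22 and 3.93 CPM in room air and 5.46, 5.596, 5.65 and 6.12 CPM in hypoxia. These groups did not overlap, but the change did not pass (0.38 ± 0.16, adjusted p = 0.12). The ratio of Ece1 to Ece2 per kb was 130 ± 26.5 under room air and 86.9 ± 22.2 under hypoxia for wild type, and 96.4 ± 15.5 against 55.4 ± 12.9 for the knockout, where the samples of both oxygen levels did not overlap.

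In total, 1 of 6 tested endothelin genes was called for hypoxia in wild type, against 4.98% of all genes tested, and 4 of 6 in the knockout (Edn1, Edn3, Ednrb and Ece1), against 17.0%. The groups did not overlap for 2 of 6 in wild type (Ednrb and Ece1), against 8.24% of all genes, and for 4 of 6 in the knockout (Edn1, Edn3, Ednrb and Ece2), against 24.4%. With so few genes these shares are counts only.

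Between genotypes in room air, none of the 6 tested genes was called by edgeR, against 0.0761% of all genes; DESeq2 and limma voom also called none, although they called 1002 and 973 genes in all against 12. Edn3 and Ece1 were lower in all 4 knockout samples than in all wild type samples (log2 fold change -0.22 ± 0.11, adjusted p = 0.282, and -0.38 ± 0.13, adjusted p = 0.108); such separation was found for 10.4% of all genes. At an unadjusted p under 0.05, Ece1 was the only one of the 6. Ece1 was called without wild type room air 3 (adjusted p = 0.0423) and without the 3 samples of low read assignment, where it was -0.43 ± 0.13 (adjusted p = 0.0421). Edn1, Ednra, Ednrb and Ece2 had adjusted p from 0.385 to 0.931.

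In hypoxia, Edn3 was lower in the knockout, at 20.2 ± 1.33 CPM, than in wild type, at 28.4 ± 5.87 CPM (log2 fold change -0.49 ± 0.12, adjusted p = 0.0067). It was the only called gene of 6, against 23.0% of all genes. The lowest wild type sample, at 24.0 CPM, lay above the highest knockout sample, at 21.9 CPM; no other of the 6 genes was without overlap, against 25.4% of all genes. This call held in all 28 alternatives, with adjusted p up to 0.0426. Edn1 was higher by 0.65 ± 0.24 (adjusted p = 0.0583), with 1 wild type sample, at 91.3 CPM, inside the knockout range of 81.9 to 107. It was called in 8 of 28 alternatives, with adjusted p from 0.00201 to 0.154. Without wild type hypoxia 1, without wild type room air 2 or 3, and without all 3 samples of low read assignment (0.87 ± 0.14, adjusted p = 0.00201) it passed.

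Ece1 was lower by 0.35 on the log2 scale in knockout hypoxia (-0.35 ± 0.13, adjusted p = 0.0559), and was called in 9 of 28 alternatives, 3 of them without wild type room air 2 or 3 or knockout hypoxia 1 (adjusted p = 0.0375, 0.0469 and 0.0111). Ednra was at 45.1 ± 4.87 CPM in the knockout and 52.8 ± 5.16 in wild type (-0.23 ± 0.10, adjusted p = 0.0937; without knockout hypoxia 1, -0.29 ± 0.10 and 0.0478). Ednrb was at 56.7 ± 5.65 and 55.6 ± 7.74 CPM (0.02 ± 0.12, adjusted p = 0.904), and its 95% interval ran from -0.23 to 0.27. None of the 6 genes was called for the difference between the hypoxia effects, against 0.501% of all genes; none was called in any alternative. The comparisons between genotypes and those between oxygen levels share samples and are not independent of each other.

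**Figure D4:**
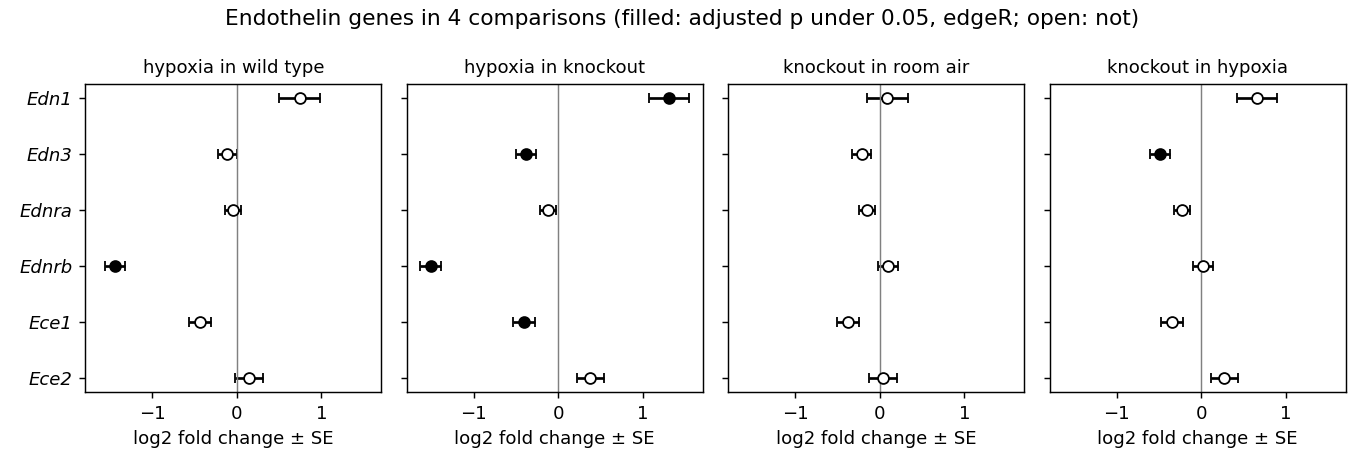
Log2 fold change ± SE (horizontal axis) of the 6 tested endothelin genes (vertical axis) for hypoxia against room air in each genotype and for knockout against wild type at each oxygen level; filled points passed an adjusted p of 0.05 in edgeR. Ednrb is far to the left in both hypoxia comparisons, at -1.44 and -1.51, and near 0 in both genotype comparisons.

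Markers of the cell types that carry the receptors were set beside them. For this and the other marker lists, the share of all genes called for hypoxia was 4.98% in wild type and 17.0% in the knockout. Of 10 aerocyte markers, 5 were lower after hypoxia in wild type and none higher, with a median log2 fold change of -0.38 against -0.01 for all genes. The same count fell in the knockout, with a median of -0.50 against 0.00. Fibin fell from 61.3 ± 9.0 to 23.3 ± 6.90 CPM in wild type (-1.39 ± 0.18, adjusted p = 9.52e-05), about as far as Ednrb. Kdr, the main receptor for VEGF-A, fell from 633 ± 85.5 to 453 ± 27.3 CPM (-0.48 ± 0.10, adjusted p = 0.00857), and Car4, a carbonic anhydrase on aerocytes, from 120 ± 8.37 to 80.8 ± 7.59 CPM (-0.57 ± 0.13, adjusted p = 0.0126). In the knockout the changes were -1.33 ± 0.18 for Fibin, -0.77 ± 0.10 for Kdr and -0.68 ± 0.13 for Car4.

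The summed level of all 10 aerocyte markers was 3392 to 3651 CPM in wild type room air and 2859 to 3221 in wild type hypoxia, and 3203 to 3429 and 2714 to 2949 CPM in the knockout. The sums did not overlap between oxygen levels. They rest mostly on Emp2, Nrp1 and Kdr (1416.5, 720 and 633 CPM in wild type room air), with Fibin at 61.3 CPM. A change in the less abundant markers hardly moves the sums, so their size cannot be set against that of Ednrb. In whole lung, fewer cells of a type and less RNA per cell cannot be told apart. The part of the aerocytes in the fall of Ednrb was not tested.

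Of 8 markers of general capillary endothelium, the other capillary type, 2 fell and 1 rose in each genotype. Plvap, which forms the diaphragms of endothelial pores, fell from 321 ± 30.4 to 74.5 ± 6.54 CPM in wild type (-2.11 ± 0.15, adjusted p = 1.21e-07) and from 319 ± 33.7 to 64.4 ± 18.9 CPM in the knockout (-2.31 ± 0.15, adjusted p = 3.51e-08). Kit fell by less (-0.58 ± 0.10 and -0.42 ± 0.10) and Sema3c, a semaphorin, rose (0.99 ± 0.14 and 0.86 ± 0.14). Markers of all endothelium did not fall: 0 of 8 were called in wild type, with summed levels of 3578 to 3783 CPM in room air and 3416 to 4107 in hypoxia. In the knockout 3 of 8 rose (Pecam1, Tie1 and Egfl7), and the sum went from 3397 to 3966 CPM in room air to 4193 to 4576 in hypoxia.

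For Edn1, arterial markers are the nearest list. Of 9, in wild type 2 rose and 2 fell, and in the knockout 3 rose and 3 fell. Gja4, a connexin of arterial endothelium, rose from 37.2 ± 1.38 to 67.8 ± 20.1 CPM in wild type and from 37.6 ± 1.81 to 79.5 ± 14.95 in the knockout, and Sox17, an arterial transcription factor, by 0.72 ± 0.16 and 0.78 ± 0.16 on the log2 scale. Efnb2 fell by 0.99 and 0.79 (-0.99 ± 0.16 and -0.79 ± 0.16). The sum of the list was 523 to 646 CPM in wild type room air and 447 to 511 in wild type hypoxia, and overlapped between oxygen levels in the knockout (490 to 590 and 530 to 613 CPM). Venous markers had 1 lower in wild type, and 2 higher and 1 lower in the knockout, of 6.

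For Ednra, the lists are smooth muscle, pericytes and fibroblasts. None of 8 smooth muscle markers was called in wild type and 2 were lower in the knockout (Cnn1, -0.76 ± 0.14, and Actg2, -0.64 ± 0.17); the summed level overlapped in both genotypes (639 to 917 and 762 to 1022 CPM in wild type, 672 to 764 and 583 to 871 in the knockout). Of 10 pericyte markers, 2 rose in wild type (Higd1b and Trpc6) and 3 in the knockout (Trpc6, Higd1b and Abcc9). Fibroblast markers were called 0 of 9 in wild type and 1 lower in the knockout (Dpt, -0.78 ± 0.09).

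**Figure D5:**
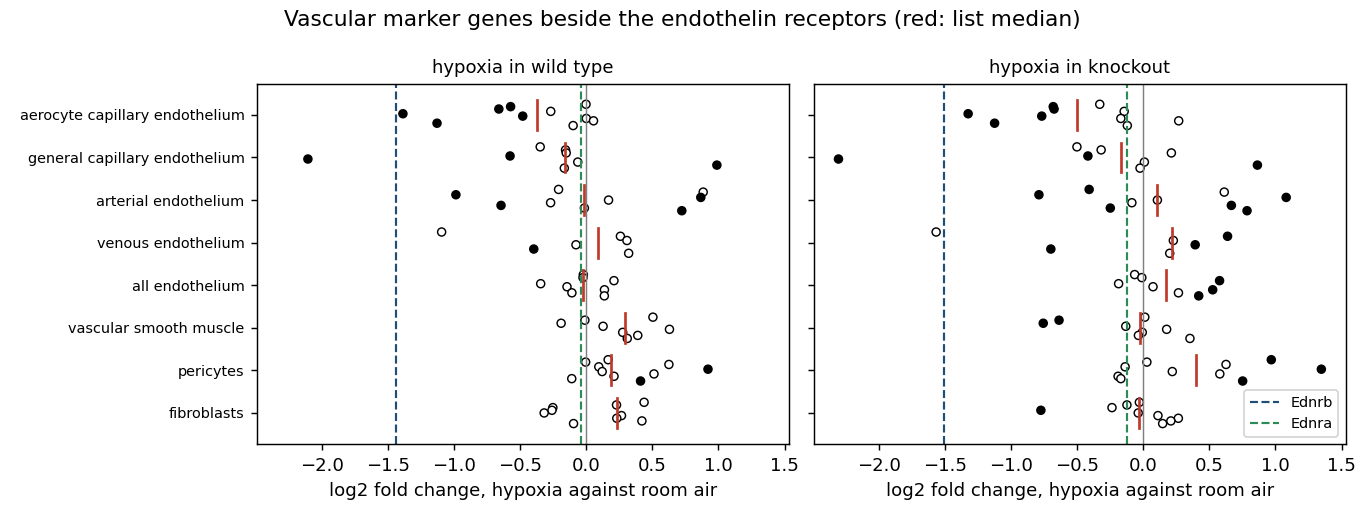
Log2 fold change of hypoxia against room air (horizontal axis) for each marker gene of 8 vascular and stromal lists (vertical axis) in wild type (left) and knockout (right); filled points passed an adjusted p of 0.05 in edgeR, red bars are list medians and dashed lines are Ednrb and Ednra. Ednrb, at -1.44 and -1.51, lies beyond all aerocyte markers in both genotypes, Fibin at -1.39 and -1.33 being nearest, and Plvap is farther out at -2.11 and -2.31.

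Calls in this and the following pathway lists are counts only. Of all genes, 4.98% were called for hypoxia in wild type and 17.0% for hypoxia in the knockout, in either direction. Between genotypes in hypoxia the share was 23.0%. Among 9 genes of peptide processing and removal, 7 were tested. Mme, neprilysin, which degrades endothelin 1, rose in wild type from 204 ± 40.1 to 281 ± 41.6 CPM (0.47 ± 0.12, adjusted p = 0.0279) and no other was called there. In the knockout only Cma1, a mast cell protease, was called, from 1.43 ± 0.57 to 0.486 ± 0.249 CPM (-1.51 ± 0.38, adjusted p = 0.00869). Between genotypes in hypoxia only Kel, a protease that acts on big endothelin 3, was called, at 0.255 ± 0.154 CPM in wild type and 1.39 ± 1.55 in knockout mice, a low level with a wide spread.

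Of 27 genes of receptor coupling and second messengers, 1 rose and 3 fell in wild type hypoxia, with 4.98% of all genes called. In knockout hypoxia 4 rose and 3 fell, with 17.0% of all genes called. The list medians were -0.02 and 0.09. Prkce, protein kinase C epsilon, fell in both (-0.61 ± 0.10 and -0.65 ± 0.10), as did Arhgef12, a link from G12/13 to RhoA (-0.34 ± 0.08 in wild type). Grk2, listed as Adrbk1, a kinase that desensitises receptors, fell from 139 ± 10.8 to 107 ± 8.62 CPM in wild type (adjusted p = 0.0047). Plcb1, a phospholipase C activated by Gq, rose from 70.8 ± 8.46 to 137 ± 8.62 CPM in the knockout (0.95 ± 0.12, adjusted p = 1.98e-05), and Plcb2 fell by 0.79 (-0.79 ± 0.14). Between genotypes in hypoxia 5 rose and 4 fell, with 23.0% of all genes called. They were led by Rock2, a kinase that sensitises smooth muscle to calcium, at 335 ± 31.9 CPM for wild type and 509 ± 35.1 in the knockout (0.60 ± 0.11, adjusted p = 0.00149).

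RGS proteins speed the shut-off of Gq and Gi. Of 5, 2 rose in wild type and 3 in the knockout, and none fell. Rgs5, typical of pericytes, rose from 4.59 ± 2.22 to 26.3 ± 9.02 CPM in wild type (2.49 ± 0.34, adjusted p = 0.00046) and from 7.11 ± 1.23 to 153 ± 23.7 CPM in the knockout (4.41 ± 0.34, adjusted p = 1.3e-06). For the difference between the hypoxia effects, none of the 5 was called. Rgs4 rose by 1.55 ± 0.24 in wild type and 1.67 ± 0.24 in the knockout. Rgs16 rose in the knockout by 1.66 ± 0.36, from 0.989 ± 0.420 CPM. Of 8 genes of calcium entry and stores, only Trpc6, a channel opened downstream of Gq and also on the pericyte list, was called, higher in both genotypes (0.41 ± 0.09 and 0.75 ± 0.09) and higher in the knockout than in wild type under hypoxia (0.41 ± 0.09, adjusted p = 0.00448).

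Of 18 known regulators of Edn1 transcription, none rose after hypoxia in either genotype. Over all genes, 4.98% were called in wild type and 17.0% in the knockout, in either direction. With 18 genes this is a count only. Jun, a subunit of AP-1, fell in wild type from 292 ± 49.5 to 178 ± 20.2 CPM (-0.71 ± 0.16, adjusted p = 0.0144) and in the knockout from 318 ± 76.5 to 190 ± 36.4 (-0.74 ± 0.16, adjusted p = 0.00402). In the knockout 3 more fell, among them Jund (-0.26 ± 0.08) and Fosl2 (-0.37 ± 0.12). Between genotypes in hypoxia 3 were higher in the knockout and 1 was lower. Hif1a, the oxygen-regulated subunit of HIF-1, was at 126 ± 11.5 CPM in wild type and 170 ± 12.8 in the knockout (0.44 ± 0.08, adjusted p = 0.00199). In room air it was at 118 ± 10.4 and 154 ± 6.71 CPM and was not called (0.38 ± 0.08, adjusted p = 0.0601). Under hypoxia Nr3c1, the glucocorticoid receptor, was higher in the knockout by 0.31 ± 0.08, and Smad3 was lower (-0.47 ± 0.11). These are RNA levels, and HIF and AP-1 act largely through protein stability and phosphorylation.

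Of 22 receptors for other vasoactive substances, 21 were tested. In wild type F2r, the thrombin receptor, rose from 298 ± 27.7 to 375 ± 13.9 CPM (0.33 ± 0.08, adjusted p = 0.0144). In the knockout F2r rose by 0.49 ± 0.08 and 4 fell, among them Tbxa2r, the thromboxane receptor (-0.82 ± 0.18), and Adra1b (-1.43 ± 0.37, from 1.09 ± 0.29 CPM). The list medians were -0.03 in wild type and -0.35 in the knockout. None of the 21 estimates was as low as that of Ednrb in either genotype; this compares estimates and is no test.

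The genes whose log2 CPM followed each endothelin gene most closely were taken over the 16 samples from 11948 others with a mean of at least 5 CPM. The correlation is a description, since the samples share their groups and libraries. Ednrb was nearest to Fmo1, a monooxygenase (Pearson r = 0.98), Slc16a9 (0.97) and Plvap (0.96). After each group's mean was taken out, r was 0.60, 0.39 and 0.13, so the likeness lay mostly in the group means. Edn1 was nearest to She (0.94), B3gnt3 (0.92) and Sox17 (0.92), and within groups r stayed at 0.79, 0.65 and 0.79. Ece1 was nearest to Faah (0.96; 0.89 within groups), Plxna1 (0.95; 0.91) and Myo10 (0.94; 0.93). Edn3 was nearest to Osbpl6 (0.95; 0.86), Ldlrad3 (0.93; 0.79) and Mapk15 (0.93; 0.73), and Ednra to Slc52a2 (0.89; 0.80), Tspan18 (0.87; 0.81) and Aff2 (0.86; 0.86).

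Among the endothelin genes themselves, Edn1 ran against Ednrb (r = -0.73), Ece1 (-0.72) and Edn3 (-0.68) over the 16 samples, and within groups these were 0.28, -0.17 and -0.18. Edn3 and Ednra ran together (0.75; 0.51 within groups), as did Edn3 and Ednrb (0.54; 0.72 within groups).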

How the data were processed

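Lung RNA depleted of ribosomal RNA was made into libraries with a strand-marking kit, per the labels' protocols. The submitters' processing notes name Trim Galore, TopHat2, HTSeq and mm10; no source used here gives versions, annotation or strand setting. The authors deposited whole-number read counts, not normalized, for 24062 gene symbols; 5 lines that name no gene were left out of library sizes and tests, among them ambiguous reads, 0.459% to 2.13% of the reads in genes. Of the symbols, 23922 matched RefSeq. The 20 libraries became 16 samples: 4 room air pairs that share a number (letters A and B) were summed, each being the nearest to the other in its group. Each number is treated as 1 animal, although no label says so, and p-values measure only the spread between these samples.

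Counts were tested with edgeR 4.0.16 in R 4.3.3: TMM scaling, filterByExpr (minimum count 10, minimum total 15; 15766 genes kept, 8296 removed, of the 7 endothelin genes only Edn2), 1 robust quasi-likelihood fit of all 4 groups without covariates, two-sided tests and Benjamini-Hochberg adjustment over all genes. Called means an adjusted p under 0.05. Counts of calls leave out 5 Y-linked genes and Xist or Tsix, leaving 15761. The biological coefficient of variation was 15.8%. CPM use TMM-scaled totals, log2 CPM a prior count of 2, and levels per kb the merged exons of GENCODE vM21. A 95% interval is the log2 fold change with its SE and the t quantile of the test's degrees of freedom. Alternatives were other scalings, no filter, DESeq2 1.42.0, limma voom 3.58.1, fewer groups, a replicate block, the deeper library of each pair, a removed GC trend and samples left out.

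The endothelin genes, marker lists and pathway lists were chosen with earlier results of these data known. Named genes are the 7 endothelin genes, Arg2, the 3 most similar genes of each endothelin gene with a mean of at least 5 CPM, and up to 3 called genes of smallest p per list and comparison. Lists for mesothelium, airway and alveolar epithelium, macrophages, lymphocytes, thymocytes, heart muscle, skeletal muscle, pancreas and brown fat served to look for other cells and organs. A few single-gene results and 1 marker list are not reported here.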

Additional observations from a re-analysis of the deposited data

Results flagged for a closer look

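In 2 of 27 groups of 4 samples tested, 1 sample stood apart from the others by Dixon's criterion at the 95% level. For continuous values it flags about 1 in 20 groups by chance. Both concern Edn2, and in both the sample had 1 read while the other samples of its group had 0. With such counts a single read is always flagged, so that rate does not apply to them. Wild type hypoxia 4 was at 0.0293 CPM (0.029252) and knockout room air 1 at 0.0159 CPM (0.015891). Both lie below the level that a count of 0 allows.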

How the results depend on the processing

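The fall of Ednrb in both genotypes and the lower Edn3 in knockout hypoxia kept their direction and call in all 28 alternatives. The number of endothelin genes called for hypoxia in wild type was 1; it was 3 with DESeq2, 2 with limma voom, 2 with the replicate block, 2 with the GC trend removed, 2 without samples under 40% of reads in genes and 1 to 3 when 1 sample was left out. For hypoxia in the knockout it was 4, and 3 with the deeper library of each pair and 3 without samples with markers of other organs. It was 2 without the samples with pancreas, skeletal muscle or Dntt reads, 2 without those under 40% and 2 to 4 with 1 sample left out. For the knockout in room air it was 0, and 1 without samples under 40% and 0 to 1 with 1 left out. For the knockout in hypoxia it was 1, and 2 with upper quartile scaling, 3 with DESeq2, 3 with limma voom, 2 with the compared groups alone, 3 with the replicate block, 2 without samples with markers of other organs, 2 without those or Dntt, 2 without samples under 40% and 1 to 3 with 1 left out. The removed GC trend was chosen after seeing the data. So were 2 sets of left-out samples: those with pancreas, skeletal muscle or Dntt reads, and those under 40% of reads in genes. For several of these settings the count over all genes is not given here, so the number of endothelin genes called cannot be set against it. The causes of these changes were not tested.

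All genes called for hypoxia in wild type numbered 785, but 400 with the compared groups alone, 477 without organ or Dntt samples and 484 to 1051 with 1 left out. For hypoxia in the knockout they were 2685. They were 1762 without organ samples, which takes out knockout hypoxia 1 and 2. They were 1035 without organ or Dntt samples, which also takes out knockout room air 3 and 4. For the knockout in room air they were 12, and 29 with RLE, 113 with upper quartile scaling, 20 with no filter, 1002 with DESeq2, 973 with limma voom, 4 with the compared groups, 238 with the replicate block, 207 with the deeper library, 0 without organ samples, 46 with the GC trend removed, 0 without organ or Dntt samples, 1855 without samples under 40% and 0 to 2197 with 1 left out. At an unadjusted p under 0.05, 3406 genes passed there. For the knockout in hypoxia they were 3632, but 2025 without organ or Dntt samples, 2361 without samples under 40% and 2092 to 4336 with 1 left out. For the difference between the effects they were 79, and 475 with DESeq2, 157 with the replicate block, 30 without organ samples, 178 with the GC trend removed, 35 without organ or Dntt samples, 9 without samples under 40% and 26 to 125 with 1 left out. The receptor ratios per kb of the longest transcript were 0.418, 1.081, 0.345 and 0.901.

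No label says that the numbers pair the samples. Deviations of same-numbered samples correlated from -0.36 to 0.46, and in no pair of groups were all 4 above 0.1; 3 of 4 samples correlated best with their own number between both wild type groups and between both room air groups, but 0 to 2 of 4 between the others. As no label gives a pairing, the samples were not treated as paired. These correlations do not decide whether they were. With the replicate block, Ece1 in wild type hypoxia had an adjusted p of 0.0273, and in the knockout against wild type in hypoxia Edn1 had 0.0425 and Ece1 0.0201.

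Signs turned only for effects near 0 or not called in any alternative. For Ednra these were 0.0046 in wild type hypoxia without wild type hypoxia 2, and -0.14 to 0.013 for the difference with 1 left out. For Ece2 in room air knockout they were -0.035 with the deeper library, -0.031 without organ samples, -0.11 without organ or Dntt samples, -0.015 without samples under 40%, and -0.066 to 0.15 with 1 left out. For Edn1 there it was -0.045 to 0.32 with 1 left out, and for Ednrb there -0.00066 with the GC trend removed. For Ednrb in knockout hypoxia against wild type they were -0.011 with upper quartile scaling, -0.012 without organ samples, -0.012 without organ or Dntt samples, -0.081 with the GC trend removed, -0.030 without samples under 40% and -0.0443 to 0.12 with 1 left out. For the difference between the effects, Ednrb ran from -0.15 to 0.022 with 1 left out, and Ece1 was -0.014 with upper quartile scaling, -0.22 without organ samples, -0.34 without organ or Dntt samples and -0.10 to 0.11 with 1 left out. Depth limits Edn2, with 0 to 5 reads per sample, and Ece2, with as few as 34.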

Other observations

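Lists of other lung cells moved beside the endothelin genes to different degrees. Of all genes, 4.98% were called for hypoxia in wild type and 17.0% in the knockout. All 6 T and B cell markers fell after hypoxia in the knockout, with summed levels of 65.0 to 80.9 CPM in room air and 17.3 to 31.4 in hypoxia, and 1 of 6 fell in wild type. Of 6 macrophage markers, 1 rose in wild type and 2 in the knockout. None of 6 alveolar epithelial and 4 mesothelial markers was called in either genotype, and 1 of 4 tested airway markers fell in the knockout alone.

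Among tissues outside the lung proper, 6 of 8 tested heart muscle markers and 3 of 5 tested brown fat markers fell after hypoxia in the knockout, and none in wild type. Of 8 skeletal muscle markers, 1 fell in wild type. Skeletal muscle markers summed to 1366 CPM in wild type room air 1, and pancreas markers to 1518 and 116 CPM in knockout hypoxia 1 and 2, where 3 of 3 tested pancreas markers were called higher. Of 3 tested thymocyte markers, 1 fell in wild type and 2 in the knockout. In the knockout the summed markers were at 74.6 and 59.6 CPM in room air 3 and 4, the samples with Dntt reads. Room air 1 and 2 had 12.9 and 12.8 CPM, and the knockout hypoxia samples 9.23 to 12.3. The part of these tissues in the levels of the endothelin genes was not tested, other than by the analyses that left their samples out.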
